A study of Mus musculus with 4 samples.

Results

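Unstimulated macrophages labelled Jmjd3-/- were compared with unstimulated wild-type macrophages, each group measured on 1 expression array, so that 2 of the 4 arrays of the study enter the comparison. The cells were grown from mouse bone marrow over 5 days with M-CSF, the growth factor that drives macrophage formation in such cultures, and all groups share this culture. The groups compared are the array labelled Wild-type unstimulated and the array labelled Jmjd3-/- unstimulated, called knockout here. The other 2 arrays carry the same genotypes after lipopolysaccharide (LPS), the bacterial cell wall component sensed by Toll-like receptor 4, at 100 ng/ml for 4 h. Strain, age and sex of the mice, the deleted part of the gene, its promoter or Cre driver if any, and whether the arrays came from separate animals were not given in the sources used here.

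A gene was represented by its brightest probe set among those naming 1 gene, and 18193 genes were measured in this way. Of these, 9045 reached log2 6 in the higher of the 2 unstimulated arrays, the floor used for counting, and the other 9148 did not. Levels are log2 intensities, and every difference is knockout minus wild type on that scale, so that 1 unit is 2-fold. With 1 array per group no difference has a replicate check and no test was made, and "higher" and "lower" in a count mean 2-fold or more between these 2 arrays. The only error within reach is the spread between probe sets of a gene. Over 3629 genes with at least 2 probe sets past the floor it had a median SD of 0.19 and a 95th percentile of 0.66, which says nothing of the spread between cultures.

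JMJD3, the protein encoded by Kdm6b, removes methyl groups from lysine 27 of histone H3. The trimethylated form of this residue is laid down by Polycomb repressive complex 2 and marks silent genes, many of them developmental regulators. In macrophages Kdm6b is known as a gene induced by LPS, and as a gene tied to the alternative activation programme that interleukin 4 or chitin brings about, in which Arg1, Irf4 and the chemokines Ccl17, Ccl22 and Ccl24 take part. Bone marrow cultures in M-CSF also start with granulocyte precursors and marrow stromal cells, and markers of both were therefore listed.

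Kdm6b itself read 10.33 in wild type and 9.82 in the knockout on its brightest probe set, a difference of -0.51, which is less than 2-fold. Its other probe sets lay under the floor on both arrays and differed by 0.64 and 0.00, and none of the 3 is known here to lie in the deleted part, so they do not check the label. All 28 measured macrophage identity genes were past the floor on both arrays, with a median difference of 0.09. The array medians were 4.19 and 4.24, and 32.1% to 34.5% of probe sets reached the floor on each of the 4 arrays. Of the sex-linked genes, Xist, the RNA that coats the inactive X chromosome, read 5.69 in wild type and 8.09 in the knockout on its brightest probe set, and its other 2 probe sets differed by 3.47 and 2.48. The Y-linked Eif2s3y read 10.76 and 10.70, and Kdm5d 7.58 and 7.38, so that Y-linked RNA was present on both arrays. The part of this in the differences below was not tested.

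Of the 9045 genes, 863 were higher in the knockout, a share of 9.54%, and 519 were lower, a share of 5.74%, while 7663 lay within 2-fold. These shares are the background against which the counts of gene groups are to be read. Over all 18193 measured genes, with no floor, the shares were 6.6% and 3.36%. The median difference was 0.00 over all measured genes and 0.07 past the floor, and the SD across genes past the floor was 1.05. Large differences leaned to the higher side, with 403 genes at least 4-fold higher and 175 at least 4-fold lower, and 108 against 34 at 16-fold. Many of the higher genes had no reading above background in wild type to measure a fold against, since 495 of the 863 (57.4%) lay under the floor there. The same held for 156 of the 519 lower genes (30.1%), which lay under the floor in the knockout. On the 8011 genes past the floor on both arrays the counts were nearly equal, 368 higher (4.59%) and 363 lower (4.53%). At the edge of the floor, Rpap3 read 6.002 and 5.87 and was kept, Foxc1 was kept with 2.94 and 6.005, and Tsacc with 5.97 and 5.997 was not.

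**Figure D1:**
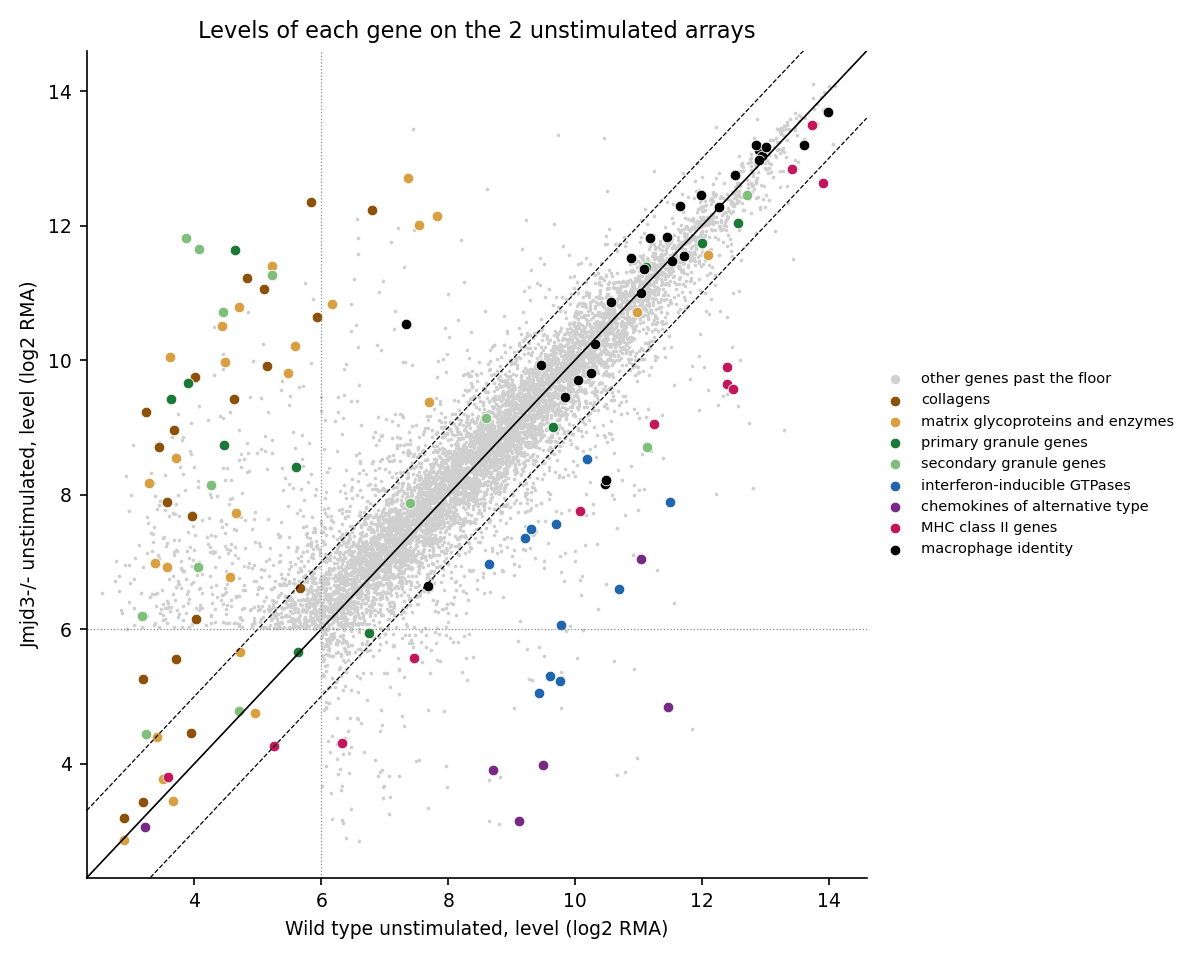
Level of each gene on the unstimulated wild-type array (x axis, log2 RMA) against the unstimulated Jmjd3-/- array (y axis, log2 RMA), with 8 gene lists in colour, the floor of log2 6 dotted, equality as a solid line and 2-fold as dashed lines. The 20 collagens lie above the diagonal and 19 of them left of the floor, granule genes lie on both sides, the 11 interferon-inducible GTPases lie below it, and 24 of the 28 macrophage identity genes lie within 2-fold of it.

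Genes are described below by 54 lists with 863 measured genes, of which some sit in more than 1 list (among them Ccl17, Ccl22, Mgl2, Clec4n, Itgax, Cd163, Cxcl12 and Car2). The lists took up 166 of the 863 higher and 146 of the 519 lower genes. For each list described by its count, the median is given over every measured member, including those under the floor, since members that passed the floor only through the array where they are high had to differ. Counts of higher and lower members take in only members past the floor. Set against all measured members, such a count therefore understates the share among those past the floor.

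Macrophage identity genes were close on the 2 arrays for most members, with 1 of 28 higher and 3 lower. Csf1r, the receptor for M-CSF, read 12.90 in wild type and 13.12 in the knockout, Adgre1, a surface marker of mouse macrophages, 11.18 and 11.82, and Spi1, the gene of the myeloid factor PU.1, 9.84 and 9.45. None of these reached 2-fold. The member that stood higher was Cx3cr1, the receptor for fractalkine, at 7.33 in wild type and 10.53 in the knockout, a difference of 3.21. Lower were the transcription factor genes Cebpb, at 10.47 and 8.15, and Tfec, at 10.49 and 8.22, and the integrin gene Itgam, which encodes CD11b, at 7.68 and 6.64. Cebpa, a relative of Cebpb that acts earlier in myeloid development, read 11.98 and 12.46. The C/EBP genes thus differed in opposite directions, and only the difference of Cebpb passed 2-fold.

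Genes typical of tissue-resident macrophages held many higher and no lower members. Of 18 measured, 16 were past the floor and 9 were higher, and the median over all 18 was 0.88. Of the 13 past the floor on both arrays 6 were higher, with a median of 0.50. Cd163, the scavenger receptor for haemoglobin bound to haptoglobin, read 3.99 in wild type and 8.41 in the knockout, a difference of 4.42. Vsig4, a complement receptor of resident macrophages, read 2.55 and 6.54. Both lay under the floor in wild type, so their folds rest on a background reading there. Members with a reading on both arrays were also apart: the ficolin gene Fcna at 7.14 and 10.46, the folate receptor gene Folr2 at 9.67 and 12.03, and F13a1, the A chain of coagulation factor XIII, at 9.16 and 11.65. Gas6, the ligand of the receptor MERTK in the uptake of dying cells, read 6.34 and 9.14, and Stab1, the gene of stabilin 1, 10.47 and 11.73. The mannose receptor gene Mrc1 was within 2-fold, at 11.75 and 11.99, and Timd4 lay under the floor on both arrays.

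Genes typical of alveolar macrophages, the macrophages of the lung airspace, stood the other way. Of 20 measured, 14 passed the floor, 9 of them lower and 2 higher, and the median over the 20 was -1.22. Plet1 read 10.66 in wild type and 3.83 in the knockout, but differed by -0.02 on probe sets without the suffix classes _s, _x or _a. Atp6v0d2, a subunit of the vacuolar proton pump, read 11.12 and 9.15, the scavenger receptor gene Marco 7.44 and 5.73, and the sialic acid receptor gene Siglecf 8.11 and 6.70. Each was above the floor in wild type, and Marco and Plet1 were under it in the knockout. The exceptions were the fatty acid binding protein gene Fabp4, at 9.80 and 10.94 but with a difference of 0.37 without those classes, and Pparg, the lipid-sensing nuclear receptor that alveolar macrophages require, at 6.37 and 8.02.

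Neutrophil granule genes held some of the greatest differences to the higher side. Primary granules are filled at the promyelocyte stage and secondary granules later, at the myelocyte stage, so that the lists follow successive steps of neutrophil formation. Of 11 measured primary granule and promyelocyte genes 5 were higher and none lower, and the median over all 11 was 0.27. For the 4 past the floor on both arrays it was -0.39, with none higher. Mpo, which encodes myeloperoxidase, read 4.65 in wild type and 11.64 in the knockout. The serine protease genes followed, with Elane, neutrophil elastase, at 3.90 and 9.66, Prtn3, proteinase 3, at 3.64 and 9.42, and Ctsg, cathepsin G, at 5.60 and 8.41. All 4 lay under the floor in wild type and at log2 8 or more in the knockout. The members that macrophages also express, such as the proteoglycan gene Srgn at 12.57 and 12.04 and the hexokinase gene Hk3 at 9.66 and 9.01, were within 2-fold.

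Secondary granule genes had a median difference of 2.87 over the 13 measured, with 7 higher and 1 lower, and their median level was 4.45 in wild type and 8.71 in the knockout. The 4 members past the floor on both arrays had a median of 0.12, with none higher and 1 lower, so that the higher members were all read in the knockout alone. Ngp, neutrophilic granule protein, read 3.87 and 11.82, the greatest difference to the higher side past the floor. Ltf, lactoferrin, read 4.45 and 10.72, and Lcn2, the iron-siderophore binding lipocalin, 5.22 and 11.27. Chil1, a chitinase-like protein gene, read 4.26 and 8.15, and Padi4, which encodes the enzyme that citrullinates histones in neutrophils, 4.05 and 6.93. All of these were under the floor in wild type. The collagenase gene Mmp8 stood against them at 11.14 in wild type against 8.71 in the knockout, and the gelatinase gene Mmp9 was within 2-fold at 8.59 and 9.13.

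Genes of mature neutrophils were mixed. Of 12 measured, 8 passed the floor, 3 of them higher and 3 lower, and the median over the 12 was 0.14. The calprotectin genes S100a8 and S100a9, which monocytes also express, read 9.73 and 7.44 in wild type and 13.35 and 13.44 in the knockout. Csf3r, the receptor for G-CSF, read 7.38 and 8.12, within 2-fold, and Cxcr2, the chemokine receptor of circulating neutrophils, was under the floor on both arrays. Lower were the decoy receptor gene Il1r2, at 6.90 and 3.81, and the receptor gene Trem1, at 7.08 and 5.14. Higher members numbered 5 and 7 in the lists of the granule-filling stages and 3 in that of mature cells. With the floor on both arrays they numbered 0, 0 and 2, so the counts give no order of stages. In these RNA extracts, more cells of a type and more RNA per cell cannot be told apart. The summed linear level of the secondary granule list was 9649 in wild type and 18346 in the knockout. In wild type most of it came from Anxa1, at 12.70 and 12.45 in the knockout, and from Mmp8. Neither of these was higher in the knockout, so the sums do not measure the change of the higher members.

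Progenitor genes gave a like split. Of 18 measured, 7 passed the floor, 3 of them higher and 3 lower, and the median over the 18 was 0.31. Myb, the transcription factor of immature blood cells, read 7.29 in wild type and 9.96 in the knockout, Cd34 3.73 and 6.66, and Sox4 7.07 and 8.51. Lower were Gata2, at 7.78 and 5.96, and the endothelial protein C receptor gene Procr, at 11.05 and 8.602. Kit and Flt3, the growth factor receptors that define early progenitors, were under the floor on both arrays.

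Collagen genes were higher in the knockout without exception among the measured: all 20 differences were above 0, 14 were 2-fold or more and the median was 4.74. In wild type 1 of the 20 reached the floor and in the knockout 15 did, so that for 14 the wild-type reading is background. Col1a1 and Col1a2 encode the chains of type I collagen, the main fibre of connective tissue. Col1a2 was the member with a reading on both arrays, at 6.80 in wild type and 12.24 in the knockout, a difference of 5.44. The fibril-forming type V collagen gene Col5a2 read 5.09 and 11.05, and the basement membrane gene Col4a1 5.94 and 10.64. The type VI collagen genes Col6a1, Col6a2 and Col6a3, whose products assemble into beaded filaments around cells, read 4.01, 3.68 and 3.24 in wild type and 9.75, 8.97 and 9.22 in the knockout. The chains of type VI collagen thus stood together, whereas of type VIII Col8a1 read 3.45 and 8.71 and Col8a2 2.88 and 3.18. Col14a1, Col16a1, Col7a1, Col8a2 and Col11a1 were under the floor on both arrays.

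Enzymes that make and cross-link collagen and glycoproteins of the matrix stood with them. Of 26 measured, 18 were higher, none lower and the median was 3.96. Serpinh1, the collagen chaperone of the endoplasmic reticulum, read 4.43 in wild type and 10.51 in the knockout. Lox, lysyl oxidase, read 7.53 and 12.01, the proteoglycan gene Bgn, biglycan, 7.83 and 12.14, and Sparc, osteonectin, 7.36 and 12.71. These 3 were above the floor on both arrays, and the difference of each exceeded 16-fold. Postn, periostin, read 4.48 and 9.98, and Tnc, tenascin C, 6.17 and 10.84. Matrix genes that macrophages themselves express were the exceptions, with Fn1, fibronectin, at 12.10 and 11.57 and Thbs1, thrombospondin 1, at 10.98 and 10.71. Dcn, Lum, Eln, Fbln1 and Mfap5, genes of many fibroblasts, were under the floor on both arrays.

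Contractile genes of the smooth muscle type were mostly higher. Of 16 measured, 10 were higher and none lower, with a median of 1.49. Acta2, smooth muscle actin, read 7.21 in wild type and 11.96 in the knockout, Tagln, transgelin, 6.58 and 11.58, and Cald1, caldesmon, 6.90 and 11.01. All 3 had readings on both arrays. The difference of Acta2 rests on a less specific probe set, of the _s class: it was 4.75 there, 1.99 on the mean of its probe sets and 0.79, under 2-fold, without that class. Myl9, the regulatory light chain of smooth muscle myosin, read 4.30 and 10.49, and the tropomyosin gene Tpm2 5.74 and 11.14. Widely expressed members were closer, with Tpm1 at 10.48 and 11.85, Actn1 at 10.36 and 10.71 and Lpp at 11.64 and 11.46. Cnn1 and Myh11, markers of differentiated smooth muscle, were under the floor on both arrays. Genes of this kind are known to carry the CArG box, bound by serum response factor. It was found by its letters in 2 of 12 contractile promoters (Myl9 and Cnn2), against 1.4% of 27025 promoters of the same length, and the 250 bases before the Myl9 start (RefSeq, GRCm38.p6, chr2:156775214-156775463, plus strand) are shown with the match in capitals.
Myl9: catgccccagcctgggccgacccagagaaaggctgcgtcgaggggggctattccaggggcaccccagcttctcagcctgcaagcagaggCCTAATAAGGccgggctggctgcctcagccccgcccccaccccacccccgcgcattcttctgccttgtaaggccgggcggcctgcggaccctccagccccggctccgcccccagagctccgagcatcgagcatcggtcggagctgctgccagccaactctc

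Mesenchymal receptors and transcription factors had a median of 3.09 over 21 measured genes, with 13 higher and none lower. Pdgfra and Pdgfrb, the receptors for platelet-derived growth factor on stromal cells, read 4.05 and 5.50 in wild type and 8.11 and 9.46 in the knockout. Cxcl12, the chemokine by which marrow stroma retains blood progenitors, read 3.95 and 9.07. The transcription factor genes Prrx1, at 3.81 and 8.86, and Snai2, at 4.27 and 8.18, stood with them. All of these were under the floor in wild type, as were 19 of the 21. The 2 members past the floor on both arrays, Eng at 8.20 and 8.19 and Kitl at 7.26 and 6.96, were within 2-fold. Thy1, Lepr, Sp7 and Twist2 were under the floor on both. Summed over the list, the linear level was 847 in wild type against 4616 in the knockout, and for collagens it was 550 and 20932.

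Growth factors of stromal origin made a group with a median of 1.87 over 23 genes, of which 15 were higher and none lower. Ccn1 and Ccn2, matricellular proteins, read 7.10 and 8.61 in wild type and 11.76 and 12.54 in the knockout. Igfbp7, an insulin-like growth factor binding protein gene, read 6.58 and 11.81, and Wnt5a 3.54 and 7.78. Fgf7, keratinocyte growth factor, read 3.93 and 8.65, and Lif, leukaemia inhibitory factor, 5.11 and 8.65. Csf1, the gene of M-CSF, with which the cultures were fed, was itself higher, at 8.63 and 9.94. Inhba, the activin A subunit that macrophages make, was within 2-fold at 9.37 and 9.56. Few endothelial markers were read: of 12 measured, 2 passed the floor and none of these was higher. The median over the 12 was 0.48, with 9 above 0 and 3 below. Pecam1 and Cdh5 were under the floor on both arrays. How far stromal cells in the knockout culture take part in the differences of other genes was not tested.

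Transcription factors of development, a class in which many promoters carry trimethylated lysine 27 in other cells, were mostly under the floor on both arrays. Of 24 measured 5 passed the floor, all in the knockout alone, and the median over the 24 was 0.17. They were Foxc2 at 3.44 and 7.84, Tbx3 at 3.75 and 7.32, Sox11 at 4.73 and 7.67, Foxc1, given above, and Sox9 at 3.54 and 6.15. Several of these are also expressed by mesenchymal cells, whose markers were higher on the same array. Of 21 Hox genes 2 passed the floor, and the median over the 21 was 0.27. The 2 were Hoxa9, a factor of early blood cells, at 3.48 and 6.59 and Hoxb4 at 5.88 and 6.02. Among 21 H3K27 demethylase and Polycomb genes 1 was higher and none lower, with a median of 0.05. That gene was Ezh2, the methyltransferase of Polycomb repressive complex 2, at 7.35 and 8.38, while Kdm6a, the related demethylase UTX, read 7.91 and 7.67.

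Mitosis genes were higher in the knockout as a whole, by small amounts. All 24 measured members differed above 0, 11 were 2-fold or more higher and the median was 0.91. Ccnb2, a cyclin of mitotic entry, read 7.42 in wild type and 9.03 in the knockout. Birc5, survivin, read 10.17 and 11.52, and Mki67, the proliferation marker, 10.12 and 10.94. Cdk1, the kinase that cyclin B activates, differed least among these at 9.57 and 9.94. Of 24 DNA replication genes 4 were higher and none lower, with a median of 0.58 and Tk1, thymidine kinase, at 8.45 and 9.69. Of 21 cell cycle entry and arrest genes 1 was higher and 1 lower, with a median of 0.14: Ccnd1, cyclin D1, was higher at 8.97 and 10.01, and Myc was lower at 8.72 and 7.54.

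**Figure D2:**
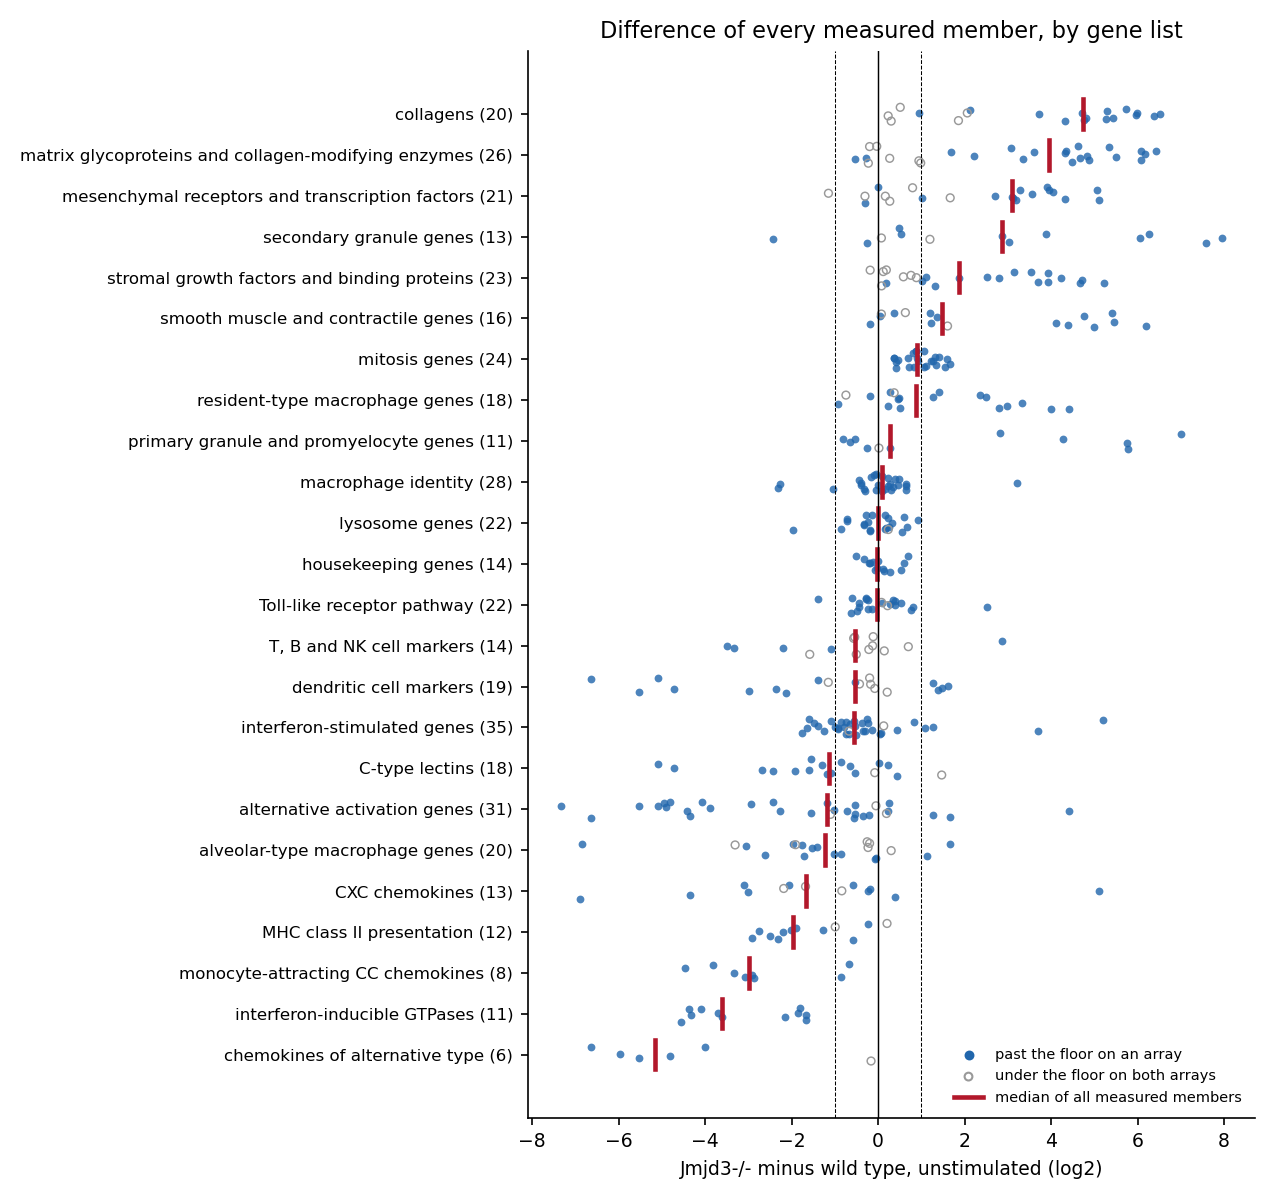
Difference between the unstimulated arrays (x axis, Jmjd3-/- minus wild type, log2) for every measured member of 24 gene lists, ordered by their medians and with the number of members in brackets; filled points passed the floor on an array, open points on neither, and red bars are medians. The medians run from -5.16 for chemokines of alternative type to 4.74 for collagens, and those of lysosome, housekeeping and Toll-like receptor genes lie at 0.01, -0.01 and -0.02.

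Interferon-inducible GTPases were lower in the knockout in every measured member. These proteins of the GBP and IRG families attack the vacuoles of intracellular microbes, and their genes are induced by interferons through the interferon-stimulated response element (ISRE) and the GAS element. The ISRE, searched on both strands as a pair of GAAA half-sites with any 2 bases between them, lay within the 250 bases before the start in 7 of the 8 GTPase genes that had a promoter sequence, against 3.04% of 27025 promoters of that length and 2.68% of the 7400 genes past the floor that had one. The 4 promoters below stand for both families (RefSeq, GRCm38.p6, 5' to 3', matches in capitals, in Irgm1 a pair that overlaps). They are Gbp2 (chr3:142620413-142620662, plus strand), Gbp7 (chr3:142530086-142530335, plus strand), Igtp (chr11:58199306-58199555, plus strand) and Irgm1 (chr11:48871421-48871670, minus strand). A match describes the letters and shows no binding.
Gbp2: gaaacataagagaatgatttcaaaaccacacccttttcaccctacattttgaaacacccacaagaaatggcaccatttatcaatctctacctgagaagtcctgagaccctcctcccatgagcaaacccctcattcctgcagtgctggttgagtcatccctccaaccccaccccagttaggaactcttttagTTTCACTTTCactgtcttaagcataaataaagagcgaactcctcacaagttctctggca
Gbp7: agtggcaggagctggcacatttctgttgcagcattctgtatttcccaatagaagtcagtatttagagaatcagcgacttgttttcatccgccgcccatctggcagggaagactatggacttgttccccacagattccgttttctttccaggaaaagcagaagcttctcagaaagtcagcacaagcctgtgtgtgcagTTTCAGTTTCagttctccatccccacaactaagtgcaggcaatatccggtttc
Igtp: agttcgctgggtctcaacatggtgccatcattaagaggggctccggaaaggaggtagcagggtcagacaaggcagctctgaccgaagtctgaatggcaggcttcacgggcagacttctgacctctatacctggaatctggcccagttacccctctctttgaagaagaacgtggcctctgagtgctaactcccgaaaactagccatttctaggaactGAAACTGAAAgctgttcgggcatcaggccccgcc
Irgm1: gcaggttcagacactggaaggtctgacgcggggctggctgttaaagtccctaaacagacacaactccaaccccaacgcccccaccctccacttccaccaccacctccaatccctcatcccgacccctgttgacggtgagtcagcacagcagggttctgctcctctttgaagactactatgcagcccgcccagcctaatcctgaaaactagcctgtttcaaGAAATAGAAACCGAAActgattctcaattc

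The level of the 11 GTPase genes had a median of 9.70 in wild type against 6.97 in the knockout, and the median difference was -3.61. Gbp2 read 10.69 in wild type and 6.59 in the knockout, Gbp7 11.50 and 7.89, and Gbp3 9.70 and 7.55. Gbp6, Gbp8 and Gbp2b, whose near-identical copies could share probes, read 9.43, 9.61 and 9.77 in wild type and 5.05, 5.30 and 6.06 in the knockout. The IRG member Iigp1 had the greatest difference of the 11, with 9.77 and 5.22. Igtp, Irgm1, Irgm2 and Ifi47 were closer, with differences of -1.82, -1.67, -1.85 and -1.67. Of the 11, 8 were past the floor on both arrays and all of these were lower as well, against 4.53% of genes past the floor on both.

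Other interferon-stimulated genes were mostly within 2-fold. Of 35 measured, 8 were lower and 4 higher, the median was -0.57, and their median level was 8.28 in wild type and 7.58 in the knockout. Differences lay below 0 for 26 of the 35. Of the 30 past the floor on both arrays 8 were lower and 1 higher, with a median of -0.66. Among all genes past the floor on both, 4.53% were lower and 4.59% higher. Ifit2, an RNA-binding antiviral protein gene, read 9.24 and 7.76, and Zbp1, a sensor of Z-form nucleic acid, 8.99 and 7.35. Rsad2, viperin, read 10.64 and 10.34, and Irf7, the interferon master regulator, 8.55 and 9.37, both within 2-fold. Ifi202b, a DNA-binding member of the HIN family, stood against the list, at 3.65 in wild type and 8.86 in the knockout, as did Trim12a at 3.04 and 6.75. A second probe set of Trim12a read 3.51 and 3.21, under the floor and with the opposite sign. Xaf1 was the only gene past the floor whose probe sets were 2-fold apart in both directions, with 8.28 and 6.53 on the brightest and 3.29 and 8.47 on another. The direction of Xaf1 is therefore uncertain, and that of Trim12a rests on its brightest probe set alone. The ISRE letters lay in 10 of 26 promoters of this list.

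The receptors and sensors upstream of these genes differed less. Ifngr1, a chain of the interferon gamma receptor, read 7.69 and 7.71, and Ifngr2, its partner, 8.77 and 10.02, higher in the knockout. Of 22 genes of the Toll-like receptor pathway 1 was higher and 1 lower, with a median of -0.02. The lower gene was Tlr4, the LPS receptor, at 10.61 and 9.24, and the higher gene was Lbp, the LPS binding protein, at 3.82 and 6.34. The co-receptor gene Cd14, at 11.45 and 11.83, and the adaptor gene Myd88, at 8.92 and 8.64, were within 2-fold.

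Chemokine genes were lower in the knockout in most members. Chemokines of alternative type, which draw T helper 2 cells and eosinophils, had a median difference of -5.16 over 6 genes, 5 of them lower. Ccl8 read 11.04 in wild type against 7.04 in the knockout, and Ccl24 8.71 and 3.90. Ccl22 and Ccl17, which the dendritic cell list also holds, read 9.50 and 11.47 in wild type and 3.98 and 4.84 in the knockout, where both were under the floor. Ccl11, eotaxin, was under the floor on both arrays. The list sum of linear levels was 6635 in wild type and 208 in the knockout.

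CC chemokines that attract monocytes were high in unstimulated wild-type cells and lower in the knockout. Of 8 measured 6 were lower, none was higher and the median was -2.996. Ccl2, the main ligand of CCR2, read 12.26 in wild type against 9.34 in the knockout, and its neighbours Ccl7 and Ccl12 10.11 and 10.49 against 6.78 and 6.68. Ccl3 and Ccl4, which macrophages make early in inflammation, read 12.33 and 10.34 against 9.46 and 7.27. Ccl5, which is induced by interferon and LPS, read 10.03 and 5.57. All but Ccl5 kept a reading above the floor in the knockout. Ccl6 and Ccl9, which macrophages make without stimulus, were within 2-fold with differences of -0.86 and -0.66.

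CXC chemokines were divided. Of 13 measured 5 were lower and 1 higher, with a median of -1.68. The neutrophil attractant gene Cxcl3 read 10.98 in wild type against 4.09 in the knockout, and its neighbour Cxcl2 11.08 and 8.09. The interferon gamma targets Cxcl9 and Cxcl10 read 7.69 and 10.24 in wild type and 3.34 and 8.18 in the knockout. Cxcl1 read 7.94 and 7.71, within 2-fold, and the higher member was the stromal gene Cxcl12, given above. Letters of an NF-kB site lay in 6 of 18 chemokine promoters (Ccl1, Ccl9, Cxcl1, Cxcl2, Cxcl3 and Cxcl10), against 7.01% of all promoters of the same length and 8.58% of those of genes past the floor. The 250 bases before the Cxcl3 start (RefSeq, GRCm38.p6, chr5:90785851-90786100, plus strand) hold matches on both strands that overlap, in capitals.
Cxcl3: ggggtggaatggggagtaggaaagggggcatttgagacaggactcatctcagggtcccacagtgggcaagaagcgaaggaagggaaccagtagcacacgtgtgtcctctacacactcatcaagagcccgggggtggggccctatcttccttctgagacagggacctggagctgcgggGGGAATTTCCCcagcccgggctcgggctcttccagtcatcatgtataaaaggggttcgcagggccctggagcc

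Some cytokine and inflammatory enzyme genes were lower as well. Of 24 measured, 13 passed the floor, 8 of them lower and 1 higher, and the median over the 24 was -0.67. Of the 9 past the floor on both arrays 4 were lower and 1 higher, with a median of -0.93. Il1b and Il1a, the interleukin 1 genes, read 10.09 and 6.97 in wild type and 6.72 and 3.48 in the knockout. Acod1, the enzyme that makes itaconate, read 11.55 and 6.39, and Csf2, the gene of GM-CSF, 8.81 and 3.79. Tnf differed less, at 8.78 and 7.13. The member that stood higher was Ptgs2, the prostaglandin synthase COX-2, at 9.40 and 11.15. Il6, Il12b, Nos2 and Il10, which need a stimulus, were under the floor on both arrays.

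Receptors for cytokines were nearer to 0, with 6 of 25 lower, 3 higher and a median of 0.02. Among the lower was Csf2rb, the shared beta chain gene of the GM-CSF receptor, at 12.49 in wild type against 11.00 in the knockout. Its copy Csf2rb2 was lower as well, at 12.12 and 10.69. These copies are alike in sequence and their probes may overlap. Csf2ra, the alpha chain of the GM-CSF receptor, was within 2-fold at 10.89 and 10.02. Il13ra1, which with the interleukin 4 receptor binds interleukins 4 and 13, read 9.29 and 7.45, while Il4ra read 9.45 and 9.23. Cish and Socs2, which signals through such receptors can induce, read 8.65 and 10.93 in wild type and 3.75 and 7.99 in the knockout. A link between these 2 genes and the receptor genes was not tested.

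NF-kB and AP-1 factors had 5 of 24 lower and 2 higher, with a median of -0.25. The lower members included genes of feedback inhibitors, such as Nfkbie at 9.78 and 7.72 and Tnfaip3, the A20 gene, at 9.38 and 7.84. Relatives of Nfkbie did not follow, with Nfkbia within 2-fold at 13.09 and 12.80 and Nfkbiz higher at 7.90 and 8.99. The subunit gene Rela was within 2-fold at 8.10 and 8.45. Fosl1, which fibroblasts also express, was higher at 3.90 and 6.39, with wild type under the floor.

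Alternative activation genes were lower in 17 of 31 measured members and higher in 3, and the median was -1.18. Of the 31, 27 reached the floor in wild type and 17 in the knockout. Over the 16 past it on both arrays the median was -0.55, with 7 lower and 2 higher. Arg1, arginase 1, read 13.30 in wild type against 8.96 in the knockout, and Slc7a2, a transporter that brings arginine in, 11.29 and 6.87. Irf4, the transcription factor of this programme, read 9.85 and 5.97, and Egr2, another, 12.47 and 10.19. Arg1, Slc7a2 and Egr2 kept readings above the floor in the knockout. Pdcd1lg2, the checkpoint ligand PD-L2, read 9.79 and 4.83, and Cdh1, E-cadherin, 9.32 and 5.24. Rnase2a, an eosinophil-associated ribonuclease, had the greatest difference to the lower side of all genes past the floor, with 11.84 and 4.51, a difference of -7.33. Members within 2-fold included Tgm2, transglutaminase 2, at 13.52 and 12.95, Klf4 at 7.605 and 7.87, and Mrc1. Of 12 arginine and polyamine genes 3 were lower and none higher, with a median of 0.09. The third beside Arg1 and Slc7a2 was Ass1, argininosuccinate synthase, at 6.33 and 3.17, while Odc1, ornithine decarboxylase, read 9.19 and 9.58.

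Genes of MHC class II presentation were lower in 8 of 12 measured members, none was higher and the median was -1.96. The class II chains H2-Aa, H2-Ab1 and H2-Eb1 read 12.40, 12.39 and 12.49 in wild type and 9.64, 9.89 and 9.57 in the knockout. Ciita, the transactivator that these genes require, read 7.46 and 5.57. The invariant chain gene Cd74 read 13.90 and 12.63, and H2-DMa, which helps load peptide, 11.25 and 9.05. The members that cut or reduce proteins for loading were within 2-fold, with Ctss, cathepsin S, at 13.74 and 13.50 and Ifi30 at 13.42 and 12.85. Of 13 costimulatory and checkpoint ligands 5 were lower, with a median of -0.93. They included Cd274, PD-L1, at 12.09 and 9.55 and Cd86 at 9.53 and 7.61, while Cd40 read 8.58 and 8.18.

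**Figure D3:**
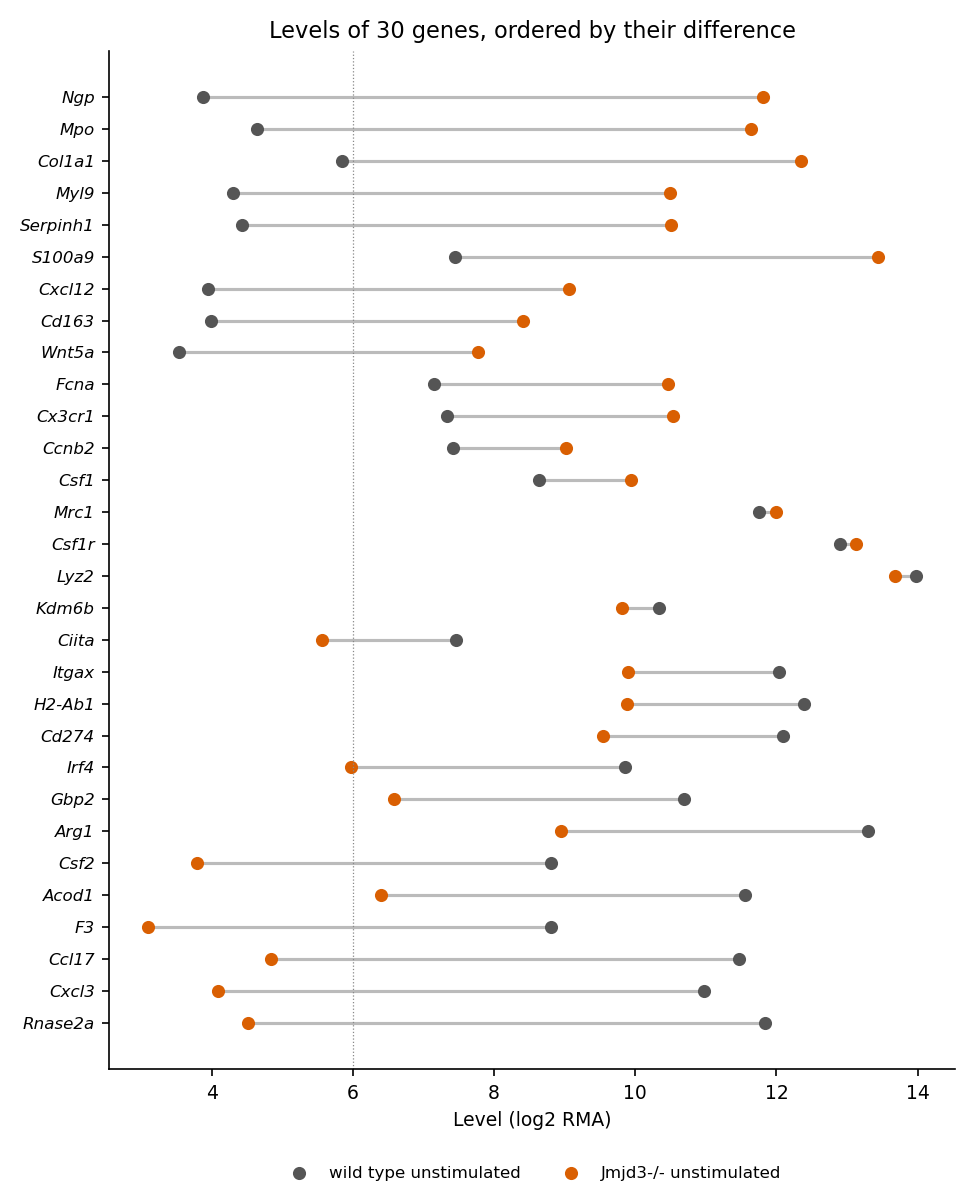
Levels (x axis, log2 RMA) of 30 named genes on the unstimulated wild-type array (grey) and the unstimulated Jmjd3-/- array (orange), 1 value each, ordered by their difference, with the floor of log2 6 dotted. Ngp, Mpo and Col1a1 stand at the top, with wild type under the floor, Rnase2a and Cxcl3 at the bottom, with the knockout under it, and Csf1r, Lyz2, Mrc1 and Kdm6b have their points close together.

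Dendritic cell markers were lower in 8 of 19 measured members and higher in 4, with a median of -0.53. Of the 7 past the floor on both arrays 4 were higher and 2 lower, with a median of 1.27, so that the direction turned where members read in wild type alone were left out. Itgax, which encodes CD11c and is also on some macrophages, read 12.04 in wild type and 9.90 in the knockout. Mgl2, a galactose-binding lectin, read 10.62 and 5.52, Batf3, a transcription factor of conventional dendritic cells, 7.71 and 5.35, and the migration receptor gene Ccr7 6.17 and 3.17. Higher were Cd83, at 8.93 and 10.40, Fscn1, at 10.05 and 11.42, Tcf4 and Bst2. Zbtb46, Xcr1, Siglech, Cd209a and Flt3, which define dendritic cell types, were under the floor on both arrays. The list reached the floor in 13 members in wild type against 7 in the knockout, and its linear levels summed to 20588 and 10216. Its part in the lower MHC class II, chemokine and alternative activation genes was not tested.

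Osteoclast and fusion genes, which mark macrophages on the way to multinucleate cells, were lower in 5 of 15 and higher in 2, with a median of -0.57. Dcstamp and Ocstamp, both needed for cell fusion, read 10.99 and 7.86 in wild type against 7.78 and 5.52 in the knockout, and Acp5, tartrate-resistant acid phosphatase, 11.49 and 10.36. Against them stood Itgb3, the integrin chain of osteoclasts, at 4.56 and 7.94, and Nfatc1 at 8.38 and 9.59.

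Lymphocyte markers were mostly under the floor. Of 14 measured T, B and NK cell markers 5 passed the floor, 4 of them lower and 1 higher, and the median was -0.52. The T cell receptor complex genes Cd3e, Cd3g and Cd3d read 6.97, 6.39 and 6.34 in wild type and 3.65, 2.89 and 4.13 in the knockout, so that they were just above the floor in wild type alone. Cd79b, a chain of the B cell receptor complex, stood the other way at 4.29 and 7.16. Cd4, Cd8a, Ms4a1, Ncr1 and Cd79a were under the floor on both arrays. The summed linear level was 5214 in wild type and 2544 in the knockout, most of it from the receptor gene Il7r, at 12.20 and 11.11. Of 11 granzyme and perforin genes 4 passed the floor, 2 of them higher and 1 lower, and the median over the 11 was 0.09. The higher were Gzme and Gzmd, close copies whose probes may overlap, which read 3.04 and 2.81 in wild type and 8.73 and 6.79 in the knockout. The lower was the granzyme inhibitor gene Serpinb9 at 7.99 and 6.24, and Gzmb, under the floor on both arrays, differed by -2.27.

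Mast cell, basophil and eosinophil markers passed the floor in 4 of 16 members, with 1 higher, 2 lower and a median of -0.26. Prg2, major basic protein of eosinophil granules, read 2.92 in wild type and 8.28 in the knockout, while Epx, eosinophil peroxidase, was under the floor on both arrays. The basophil protease gene Mcpt8 read 7.48 and 5.91. Fcer1a and Cpa3 were under the floor on both, at 5.76 and 4.78 in wild type and 2.84 and 2.998 in the knockout. Of 12 erythroid and megakaryocyte markers 4 passed the floor, 3 of them lower, and the median over the 12 was -0.10. Ppbp was among the lower at 10.78 and 7.69, while Pf4, platelet factor 4, read 12.85 and 12.65. The part of lymphocyte, mast cell and basophil RNA in the lower cytokine genes was not tested.

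C-type lectins, receptors for fungal and other sugars, were lower in 10 of 18 measured members and higher in none, with a median of -1.14. Clec4n, dectin 2, read 12.80 in wild type and 8.09 in the knockout, Clec7a, dectin 1, 12.28 and 10.73, and Clec4e, mincle, 10.29 and 7.87. Clec4d, encoded beside Clec4e, was equal on the 2 arrays at 12.85 and 12.87. Fc receptor and Trem genes, with 4 of 18 lower and 2 higher, and scavenger receptors, with 3 of 19 lower and 4 higher, had medians of 0.09. Within the former, Trem2, a lipid receptor, was higher at 10.23 and 11.43 but differed by 0.07 without suffix classes _s, _x or _a. The IgG receptor gene Fcgr4 was lower at 10.11 and 8.87. Within the latter, Olr1, the receptor for oxidised LDL, was lower at 10.66 and 7.50.

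Proteases and coagulation genes held large differences in both directions. F7 and F10, coagulation factors VII and X, read 9.27 and 12.23 in wild type and 5.25 and 8.01 in the knockout. F3, tissue factor, which starts the cascade with factor VII, read 8.80 and 3.10. Plau, urokinase, read 9.77 and 5.36, and its receptor gene Plaur differed by -1.59. Thus F3, F7 and F10 stood lower together. Other coagulation factors did not follow, with F5 within 2-fold at 6.07 and 6.34 and F13a1 higher at 9.16 and 11.65. Against the lower genes, Serpinf1, an antiangiogenic serpin that stromal cells secrete, read 6.56 and 12.10. The inhibitor gene Tfpi2 read 4.99 and 8.62, and Thbd, thrombomodulin, 7.95 and 10.47. Tfpi, a relative of Tfpi2, was within 2-fold at 7.03 and 7.50, and the protein C receptor gene Procr was lower at 11.05 and 8.602. Of 19 measured genes in this list 7 were lower and 5 higher, with a median of -0.91.

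Matrix metalloproteinases divided in a like way. Of 19 measured, 14 passed the floor, 5 of them lower and 5 higher, and the median over the 19 was 0.60. Mmp12, macrophage elastase, read 13.15 in wild type and 11.91 in the knockout, Mmp13 11.15 and 9.27, and Mmp19 12.40 and 9.50. These had readings on both arrays. Mmp2, a gelatinase of stromal cells, read 6.09 and 8.33, and the inhibitor genes Timp1 and Timp3 9.23 and 6.26 against 12.09 and 9.22. Adam12 read 3.54 and 8.29. Complement genes were likewise mixed, with 4 of 17 lower, 2 higher and a median of 0.25: Cfb, factor B, read 10.93 and 5.41, and Serping1, the C1 inhibitor, 4.48 and 8.21.

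Smaller families were mixed. Of 10 chemokine receptors 2 were lower and 1 higher (median 0.38), with Ccr1, which binds several CC chemokines, at 10.62 in wild type against 7.94 in the knockout, and Ccr2, the receptor of inflammatory monocytes, at 10.32 and 10.23. Of 20 integrin genes 4 were lower and 3 higher (median 0.17), with Itgal, the CD11a chain of leukocytes, at 10.75 and 9.47 and Itga6, a laminin receptor chain, at 9.44 and 11.51. In the Ly6 family 4 of 6 passed the floor and 2 of these were lower (median of the 6 -0.21), led by Ly6i at 10.79 and 3.88. In the RNase A family 4 of 8 passed the floor, 2 of them lower and 2 higher (median of the 8 -0.08). Rnase4 stood opposite to Rnase2a, at 8.24 and 11.15. Copies within both of these families are alike, and probes may be shared between them.

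In the metabolic and structural lists, antioxidant genes had 4 of 19 lower and 1 higher with a median of -0.55. Slc7a11, the cystine transporter, read 9.92 in wild type against 6.04 in the knockout, and the higher gene was Gpx3, a secreted glutathione peroxidase, at 7.996 and 10.98. Glycolysis and hypoxia genes had 2 of 21 higher and 1 lower (median -0.19), and cholesterol and lipid genes 5 of 24 higher and 1 lower (median -0.06). Apoe, which carries lipid out of macrophages, was the lipid gene with the greatest difference, at 10.46 and 13.30. Of 22 lysosome genes 1 was lower and none higher, and of 14 housekeeping genes none was 2-fold apart, with differences from -0.52 to 0.70.

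The LPS arrays share no array with the unstimulated comparison and read the genotype difference again, in stimulated cells. Whether the 2 arrays of a genotype came from separate cultures was not given, so the LPS arrays need not be an independent repeat. Of the 863 genes higher without LPS, 821 (95.1%) were above 0 with LPS and 585 (67.8%) were 2-fold or more higher. Of the 519 lower genes, 433 (83.4%) were below 0 and 232 (44.7%) were 2-fold or more lower. On the LPS arrays 842 of 8630 genes past the floor were higher (9.76%) and 488 lower (5.65%), and of the 7556 genes past the floor on both 4.54% and 4.05%. The median of the higher genes was 1.85 without and 1.61 with LPS, and that of the lower genes -1.61 and -0.85. For 255 lower genes the LPS arrays read past the floor and within 2-fold, and the same was true of 153 higher genes. Across 8290 genes past the floor in both states Pearson's r was 0.819 and Spearman's rho 0.58, a description across genes, which share arrays and are not replicates. With 1 array per group the change of a difference with LPS was not tested, for any gene or list.

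**Figure D4:**
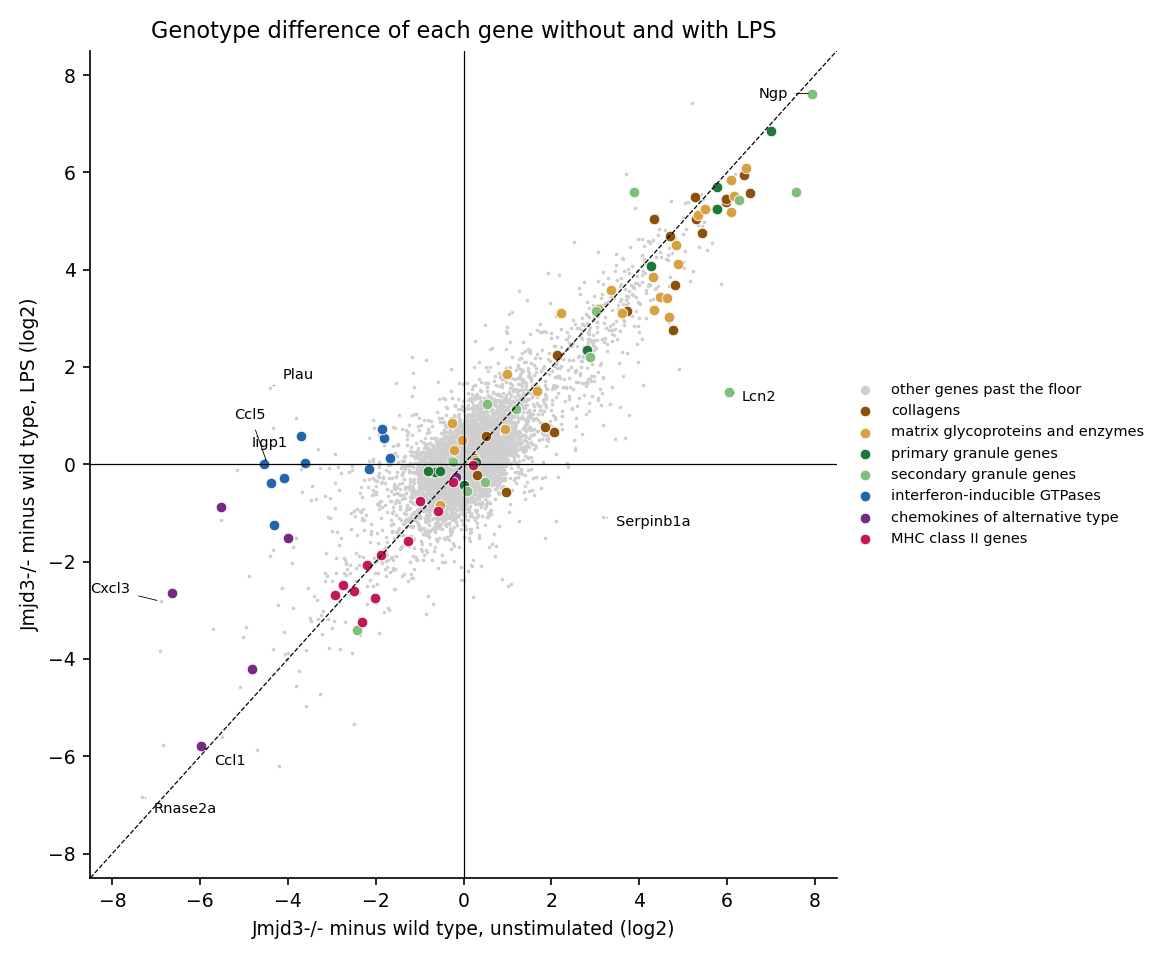
Jmjd3-/- minus wild type of each gene past the floor without LPS (x axis, log2) and with LPS (y axis, log2), with 7 gene lists in colour and equality dashed. Most collagens and granule genes lie near the dashed line, with Lcn2 apart from it, while the interferon-inducible GTPases and Ccl5 lie near 0 with LPS, and Plau and Serpinb1a lie on opposite sides of 0.

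The groups that stood higher in unstimulated knockout cells stood higher with LPS as well. The median of the 20 collagens was 4.74 without and 4.19 with LPS, with 14 higher and none lower in each state. Matrix genes had 3.96 and 3.18, and secondary granule genes 2.87 and 1.48. Individual granule genes read much alike, such as Mpo at 6.996 and 6.86 and Ngp at 7.94 and 7.62. Others moved: Lcn2 was also read in LPS-treated wild-type cells, at 10.42, and differed by 6.05 without and 1.48 with LPS. Camp differed by 7.58 and 5.60, and Chil1 by 3.89 and 5.61. The resident-type genes had medians of 0.88 and 1.19, with Cd163 at 4.42 and 4.72 and Folr2 at 2.36 and 2.37. Mitosis genes had 0.91 and 1.42.

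Of the lower groups some stood as far apart with LPS and others did not. MHC class II genes had medians of -1.96 without and -1.98 with LPS, with 8 lower in each state, and H2-Ab1 differed by -2.50 and -2.61. Alternative activation genes had -1.18 and -0.87, with Arg1 at -4.34 and -3.79 and Irf4 at -3.88 and -1.69. Ccl1, of the chemokines of alternative type, differed by -5.97 and -5.80, while Ccl17 differed by -6.63 and -2.64 and Ccl22 by -5.52 and -0.87. These genes were thus below 0 in both states.

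The interferon-inducible GTPases differed by a median of -3.61 without and 0.03 with LPS, where 1 of 11 was lower. Their median level with LPS was 12.04 in wild type and 12.17 in the knockout. Iigp1 read 12.16 and 12.17, and Gbp2 12.58 and 12.29. The member still lower was Gbp8, at 9.70 and 8.45. Of the 8 monocyte-attracting CC chemokines none was lower with LPS, and the median was -2.996 without and -0.04 with it. Ccl5 read 13.57 and 13.56 with LPS. Acod1 likewise read 13.32 and 13.21, against a difference of -5.16 without LPS. In these lists the genotypes were thus apart without LPS and close with it. Cytokines such as Csf2, at -5.02 without and -3.54 with LPS, and Il1b, at -3.36 and -0.72, were below 0 in both states.

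**Figure D5:**
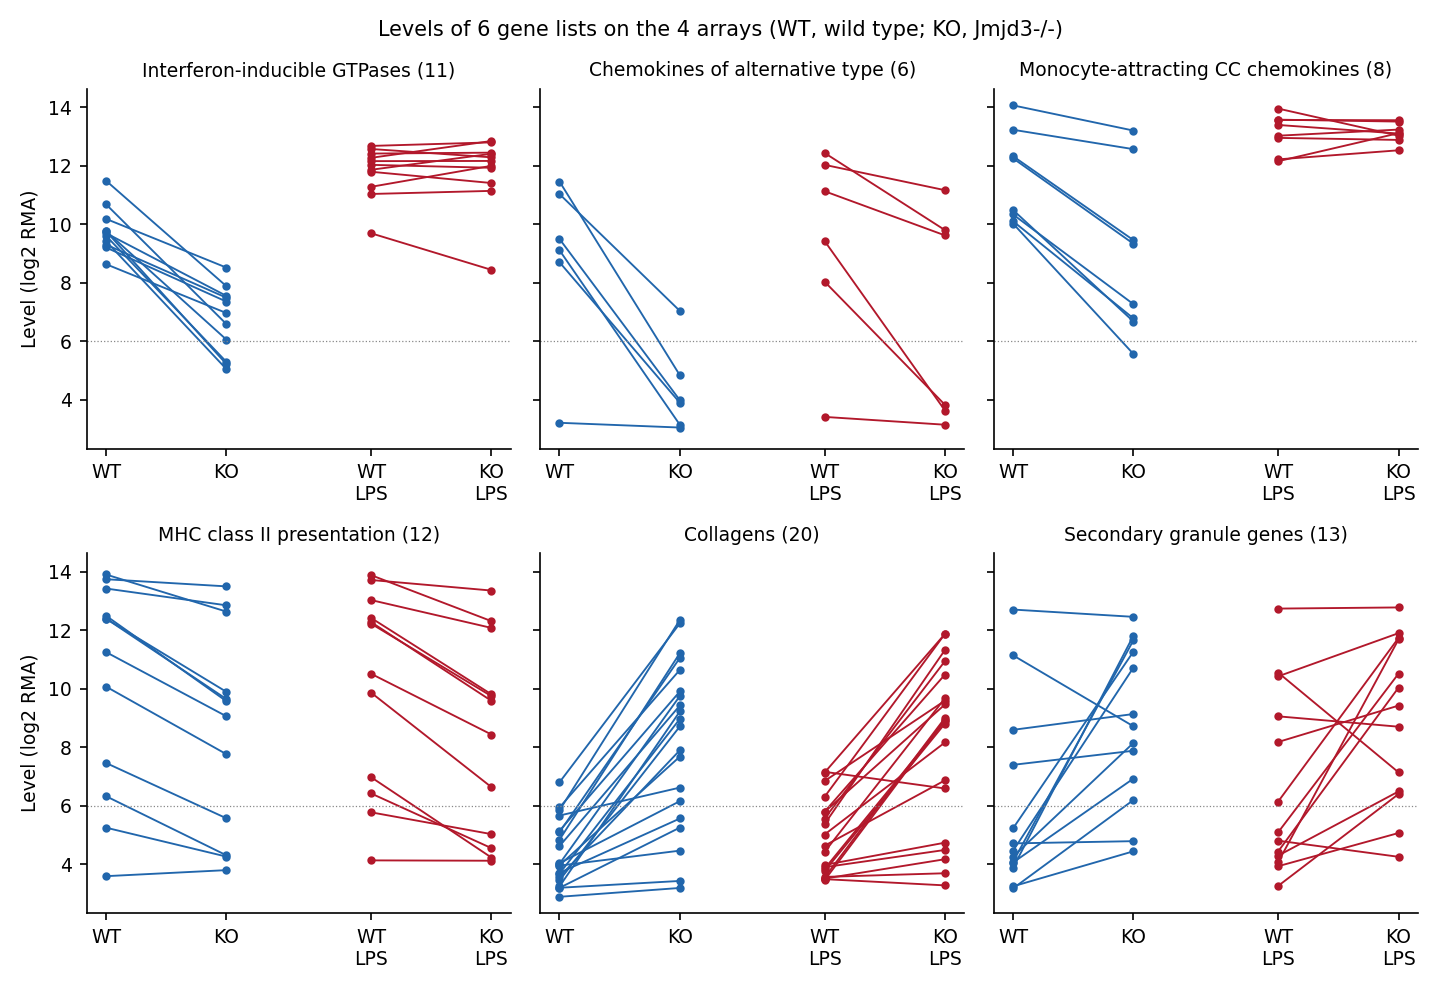
Levels (y axis, log2 RMA) of every measured member of 6 gene lists on the wild-type (WT) and Jmjd3-/- (KO) arrays, unstimulated in blue and with LPS in red, with a line for each gene and the floor dotted. The 11 GTPases and 8 CC chemokines all slope down without LPS, and with LPS none but Gbp8 is 2-fold apart, whereas most MHC class II genes slope down and most collagens up in both states.

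Promoter letters were compared over the called genes as a description. The ISRE letters lay in 6.85% of 394 promoters of lower genes and 2.35% of 637 of higher genes, against 2.68% for genes past the floor. The GAS letters, TTCNNNGAA, lay in 9.39% and 5.02%, against 5.69%. AP-1 letters, TGANTCA, lay in 8.63% and 4.71%, against 4.08%, and NF-kB letters in 11.7% and 9.89%, against 8.58%. None of the 22 granule promoters and none of the 16 collagen promoters held the ISRE letters. Called genes also had fewer CpG dinucleotides in these 250 bases, with a median of 10 in lower and 14 in higher genes against 17 past the floor. Over the autosomes and the X chromosome, the share of higher genes ran from 6.55% on chromosome 19 to 12.6% on chromosome 7, and that of lower genes from 3.8% on chromosome 13 to 8.52% on chromosome 6.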

How the data were processed

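The study measured 4 groups with 1 array each. The deposited values are log2 intensities per probe set, made by the authors with RMA, per the submitters' processing notes; its version and background model were not stated in the sources used here. RNA was extracted with Trizol and biotin-labelled cRNA made with a NuGEN Ovation kit, per the labels' protocols.

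Of 45101 probe sets, 64 were Affymetrix controls, 932 named several genes, 9160 had no name here and 34945 named 1 gene, which were used. For 34741 the gene identifier matched the RefSeq table of GRCm38.p6, and 204 kept the annotation's symbol. Each gene was represented by the brightest of its probe sets, by the mean of the 4 arrays. Differences were subtracted with Python 3.11.15, numpy 2.4.6 and pandas 2.3.3, tested on simulated data, and plotted with matplotlib 3.10.9. Depth does not apply to arrays, and their number limits the precision. The rule named the 25 highest and 25 lowest genes, and 5 at each end of every list. Members and lists were chosen with earlier results of these data known. Alternatives were other floors, folds, probe set rules and scalings. Promoter sequences were RefSeq's, matched by gene.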

Additional observations from a re-analysis of the deposited data

Results flagged for a closer look

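For 14 genes past the floor, the unstimulated difference and the LPS difference were 2-fold or more in opposite directions. The arrays number 1 per group, so the difference between the states was not tested for any of them. Plau, urokinase, was -4.42 without LPS and 1.58 with it, and Myc, the growth regulator, was -1.18 and 2.22. Id1, an inhibitor of helix-loop-helix factors, was -1.17 and 1.401, and the endothelin receptor gene Ednrb -1.09 and 1.03. Egr3 gave -1.10 and 1.03, Nol10 -1.17 and 1.005, Rnase6 -1.14 and 1.89, Ston2 -1.54 and 1.68, and Zfp532 -1.14 and 1.59. These 9 were lower in unstimulated and higher in LPS-treated knockout cells.

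The other 5 were higher without LPS and lower with it. Fst, the activin inhibitor follistatin, was 1.02 and -2.50, and Cav1, the caveolin gene, 1.08 and -2.47. Ifngr2 was 1.25 and -1.17, Plagl1 2.11 and -1.17, and the protease inhibitor gene Serpinb1a 3.18 and -1.09. Some of the unstimulated calls depend on the processing. On the mean of probe sets the unstimulated difference was 0.82 for Fst, 0.67 for Ifngr2 and -0.56 for Egr3. With 64 added to linear values it was 0.53 for Fst, -0.77 for Egr3, -0.69 for Rnase6 and -0.96 for Myc. Fst lay under the floor in unstimulated wild type, at 5.62.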

How the results depend on the processing

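The count of higher genes, 863, was 421 with a floor of log2 8, 557 with the mean of all probe sets, 522 with 64 added to linear values, 368 with the floor on both arrays and 403 at 4-fold. The count of lower genes, 519, was 175 at 4-fold and lay between 355 and 588 elsewhere. Higher genes made up 62.45% of called genes, against 50.34% with the floor on both arrays. Of higher genes 95.1% were above 0 with LPS, and 96.9% with a floor of log2 8 or with 64 added and 99.0% at 4-fold. Of lower genes 83.4% were below 0 with LPS, and 87.2% after centring on the median and 92.0% at 4-fold. Trim12a turned to -0.30 on probe sets without suffix _s, _x or _a, and Xaf1 to 1.71 on the mean of its probe sets. The median of the mesenchymal list turned to -0.15 with the floor on both arrays, which leaves 2 members. With that floor medians also changed sign for dendritic cell (1.27), primary granule (-0.39), RNase A (0.88), granzyme (-0.75), endothelial (-0.62), lysosome (-0.16) and H3K27 genes (-0.12), and 5 list medians came under 2-fold: alveolar-type (-0.94), secondary granule (0.12), mesenchymal, alternative activation (-0.55) and CXC (-0.57). Of the 422 named genes, 21 of those 2-fold apart came under 2-fold on the mean of probe sets, among them Sox4 (0.50), Ccnd1 (0.45), Fabp4 (0.74), Fscn1 (0.72), Ifngr2 (0.67), Nfatc1 (0.67) and Sox9 (0.96). Likewise 7 did on probe sets without suffix _s, _x or _a (Acta2, Fabp4, Mgll, Plet1, Slc2a3, Trem2 and, reversed, Trim12a). With 64 added 39 did, 8 after centring and 3 after quantile normalisation. The cause was not tested where none is given.

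No array was left out, since each group had 1. No paired analysis was possible because each group had 1 array and the labels carry no replicate numbers. Cultures and genotypes cannot be told apart. Folds against a reading under log2 6 depend on background, which touches 57.4% of higher and 30.1% of lower genes.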

Other observations

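Some immunoglobulin genes, which no list held, were higher in the knockout. The kappa light chain gene Igk read 6.47 in wild type against 10.84 in the knockout, and differed by 3.60 on the LPS arrays. The heavy chain genes Igha and Ighm read 5.17 and 5.80 in wild type against 9.23 and 8.77 in the knockout, and Jchain, which joins secreted IgA and IgM, read 4.25 and 8.001. These are genes of B cells and plasma cells, which they do not tell apart. Cd5l, a macrophage protein that binds IgM, read 6.98 and 11.17. Lymphocyte cytokine genes stood the other way: Il2 read 6.59 and 2.84, Ifng 6.34 and 3.11, and Il13 6.31 and 3.61. The T cell receptor segment Trbv1 read 6.96 and 3.90, and the lymphocyte receptor gene Klrb1a 7.53 and 4.06, so that these 5 were above the floor in wild type alone. These genes were chosen after their values were seen.

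Of the 25 highest and 25 lowest genes past the floor, some lay outside the lists. Mylk, myosin light chain kinase, read 4.85 in wild type and 10.72 in the knockout, Pdk4, a kinase that holds back pyruvate oxidation, 4.45 and 10.10, and Gpx8 4.30 and 9.78. Ccn3 read 8.65 and 3.14, opposite to its relatives Ccn1 and Ccn2, and differed by -5.61 with LPS. Chosen after their values were seen, Cd1d1, which presents lipids to NKT cells, read 10.10 and 6.51, and the receptor gene Met 10.13 and 5.99.

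Probe sets with no gene name here numbered 9160. Of these 1243 reached the floor, 88 were higher (7.08%) and 144 lower (11.6%), with differences from -4.26 to 5.35.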
